A study of Mus musculus with 29 samples.

Results

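Neutrophil granule protein genes were examined in sorted splenic and hepatic macrophages of wild-type and Rnaset2-/- mice. They were 10 genes, chosen by name from the 23930 genes of the deposited table, and all 10 were found. Elane, Mpo, Prtn3 and Ctsg are called early here, Ngp, Camp, Ltf and Lcn2 late, and S100a8 and S100a9 calprotectin genes. All mice were C57BL/6 and untreated, and Rnaset2-/- mice lack both Rnaset2a and Rnaset2b, the genes for the endosomal ribonuclease RNase T2, in every cell. The age of the mice used for RNA-seq is not given in the sources used here. There were 29 libraries in 9 groups: splenic Ly6Chi macrophages (3 wild-type, 3 Rnaset2-/-), splenic Ly6Clow macrophages (3 and 4), hepatic Ly6Chi macrophages (3 and 3), hepatic Ly6Clow macrophages (3 and 3) and wild-type Kupffer cells (KCs, 4). Per the labels, Ly6Chi cells were CD11b+, Ly6Clow cells CD11b+ and Fcgr4+, and both were negative for Ly6G, SiglecF and NK1.1 in either organ. The methods of the study name Ly6G and NK1.1 for the splenic sort, with a bead depletion of Ly6G+ cells before it, but name none of these stains for the hepatic sort. Ly6G marks neutrophils, the cells in which granule genes are best known.

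Neutrophils fill their granules in a fixed order as they mature in the bone marrow. Promyelocytes make the early (azurophil) granules, which hold myeloperoxidase and serine proteases, and myelocytes and metamyelocytes make the late (specific and gelatinase) granules, which hold lactoferrin, cathelicidin and lipocalin. Calprotectin is a cytosolic protein that is abundant in neutrophils and also made by monocytes. The early genes are known targets of PU.1, MYB and C/EBP factors, whereas the late genes depend on C/EBP-epsilon.

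The promoters of the 4 early and 4 late genes are shown because these classes are compared throughout. Each sequence lies within the 250 bases before the RefSeq start (GRCm38.p6), reads 5′ to 3′ on the strand of the gene and stops before the first exon in GENCODE vM21. Capitals mark AGGAAGT, a core of PU.1 and other ETS sites, or TTGCNNAA, a C/EBP site, on either strand. AGGAAGT was chosen after the sequences were seen. Camp holds neither motif.
Elane (chr10:79886062-79886246, plus strand): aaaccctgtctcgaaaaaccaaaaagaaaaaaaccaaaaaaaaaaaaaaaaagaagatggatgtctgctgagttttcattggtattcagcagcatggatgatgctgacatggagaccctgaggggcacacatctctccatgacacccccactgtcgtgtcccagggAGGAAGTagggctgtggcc
Prtn3 (chr10:79879417-79879613, plus strand): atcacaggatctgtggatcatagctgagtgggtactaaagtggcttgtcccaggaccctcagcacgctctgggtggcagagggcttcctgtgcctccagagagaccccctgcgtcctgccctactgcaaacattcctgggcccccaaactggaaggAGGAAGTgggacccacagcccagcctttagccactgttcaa
Mpo (chr11:87793534-87793580, plus strand): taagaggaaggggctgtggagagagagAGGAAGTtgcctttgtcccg
Ctsg (chr14:56102575-56102824, minus strand): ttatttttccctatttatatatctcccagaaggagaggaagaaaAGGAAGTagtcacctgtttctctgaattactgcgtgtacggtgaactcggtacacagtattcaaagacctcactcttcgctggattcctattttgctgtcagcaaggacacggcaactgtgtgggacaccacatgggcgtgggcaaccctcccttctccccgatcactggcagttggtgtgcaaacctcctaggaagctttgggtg
Ngp (chr9:110419558-110419746, plus strand): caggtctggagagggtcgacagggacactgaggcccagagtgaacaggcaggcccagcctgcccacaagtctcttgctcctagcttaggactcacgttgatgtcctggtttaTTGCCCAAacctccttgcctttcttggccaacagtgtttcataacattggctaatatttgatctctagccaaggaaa
Ltf (chr9:111019042-111019270, plus strand): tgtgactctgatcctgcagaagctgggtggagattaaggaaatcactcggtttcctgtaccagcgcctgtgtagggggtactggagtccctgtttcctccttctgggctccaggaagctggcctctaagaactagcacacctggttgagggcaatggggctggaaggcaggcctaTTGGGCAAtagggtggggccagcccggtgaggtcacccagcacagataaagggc
Camp (chr9:109849618-109849706, minus strand): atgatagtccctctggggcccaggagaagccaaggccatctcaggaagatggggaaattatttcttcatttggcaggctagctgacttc
Lcn2 (chr2:32387798-32387989, minus strand): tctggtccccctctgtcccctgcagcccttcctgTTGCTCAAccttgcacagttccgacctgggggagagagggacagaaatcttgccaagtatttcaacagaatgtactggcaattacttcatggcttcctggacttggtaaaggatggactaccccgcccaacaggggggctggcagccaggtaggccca

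Over the whole 250 bases, AGGAAGT was found in 4 of 4 early genes, 0 of 4 late genes and 1 of 2 calprotectin genes, and in 7.69% of 32851 promoters. Because this motif was chosen after these promoters were seen, that share is no yardstick for its counts. TTGCNNAA was found in 0 of 4 early genes, 3 of 4 late genes and 1 of 2 calprotectin genes, and in 9.56% of promoters. The MYB core CAACNG was found in 3 of 4 early and 2 of 4 late genes, and in 29.3% of promoters. A match is a description of these letters, not a site shown to be bound. Prtn3 and Elane are neighbours on chromosome 10, and Ngp, Camp and Ltf lie on chromosome 9.

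The libraries held 11175843 to 21167602 reads (median 13027220), and 3 reads, taken as the smallest detectable level, were worth 0.142 to 0.268 RPM (reads of the gene for each 1000000 reads of the library), for counting error only. The splenic Ly6Chi libraries were deeper from Rnaset2-/- mice (20404155 to 21167602 reads) than from wild-type mice (14280906 to 14415756 reads). The 6 hepatic Rnaset2-/- libraries of Ly6Chi and Ly6Clow macrophages had Xist at 0.154 RPM or less and Y-linked genes at 150.1 to 291 RPM, whereas the 6 wild-type ones had Xist at 321 RPM or more. Y-linked genes were at 0 in wild-type replicate 1 of either subset but at 28.95 to 52.0 RPM in replicates 2 and 3, which thus held both. Sex and genotype cannot be told apart in these hepatic comparisons. Of the splenic libraries, replicate 2 of Rnaset2-/- Ly6Clow macrophages was the only one that looked male. Nothing in the sources used here says that replicates are separate animals, so p-values measure the spread between these libraries. The kit reads 1 amplicon for each gene, so levels are compared between groups and not between genes.

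All 10 genes had their highest mean in splenic Ly6Chi macrophages of Rnaset2-/- mice, and all 10 were low in hepatic Ly6Clow macrophages. For Elane, neutrophil elastase, the mean was 438 ± 224 RPM (SD, n = 3) in splenic Ly6Chi macrophages of Rnaset2-/- mice and 84.1 ± 4.34 RPM (n = 3) in those of wild-type mice. These groups did not overlap, but the next 4 groups of Elane each overlapped the group above in the order. Splenic Ly6Clow macrophages of Rnaset2-/- mice followed for Elane, with a mean of 72.2 RPM, and KCs had 0.353 RPM. For Ngp, a neutrophil granule protein of the cathelicidin family, the means were 20875 RPM in splenic Ly6Chi macrophages of Rnaset2-/- mice, 14898 RPM in those of wild-type mice, 7556 RPM in splenic Ly6Clow macrophages of Rnaset2-/- mice and 497 RPM in those of wild-type mice. The hepatic means of Ngp were 581 RPM in wild-type Ly6Chi macrophages, 369 RPM in Rnaset2-/- Ly6Chi macrophages, 5.66 RPM in KCs, 2.40 RPM in Rnaset2-/- Ly6Clow macrophages and 0.0850 RPM in wild-type Ly6Clow macrophages. The last value lies under the worth of 3 reads. In wild-type mice, 9 of 10 genes were higher in every splenic than in every hepatic Ly6Chi library, as were 47.0% of 10681 genes. In Rnaset2-/- mice it was 10 of 10 genes, and 20.6% of 10760 genes.

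**Figure D1:**
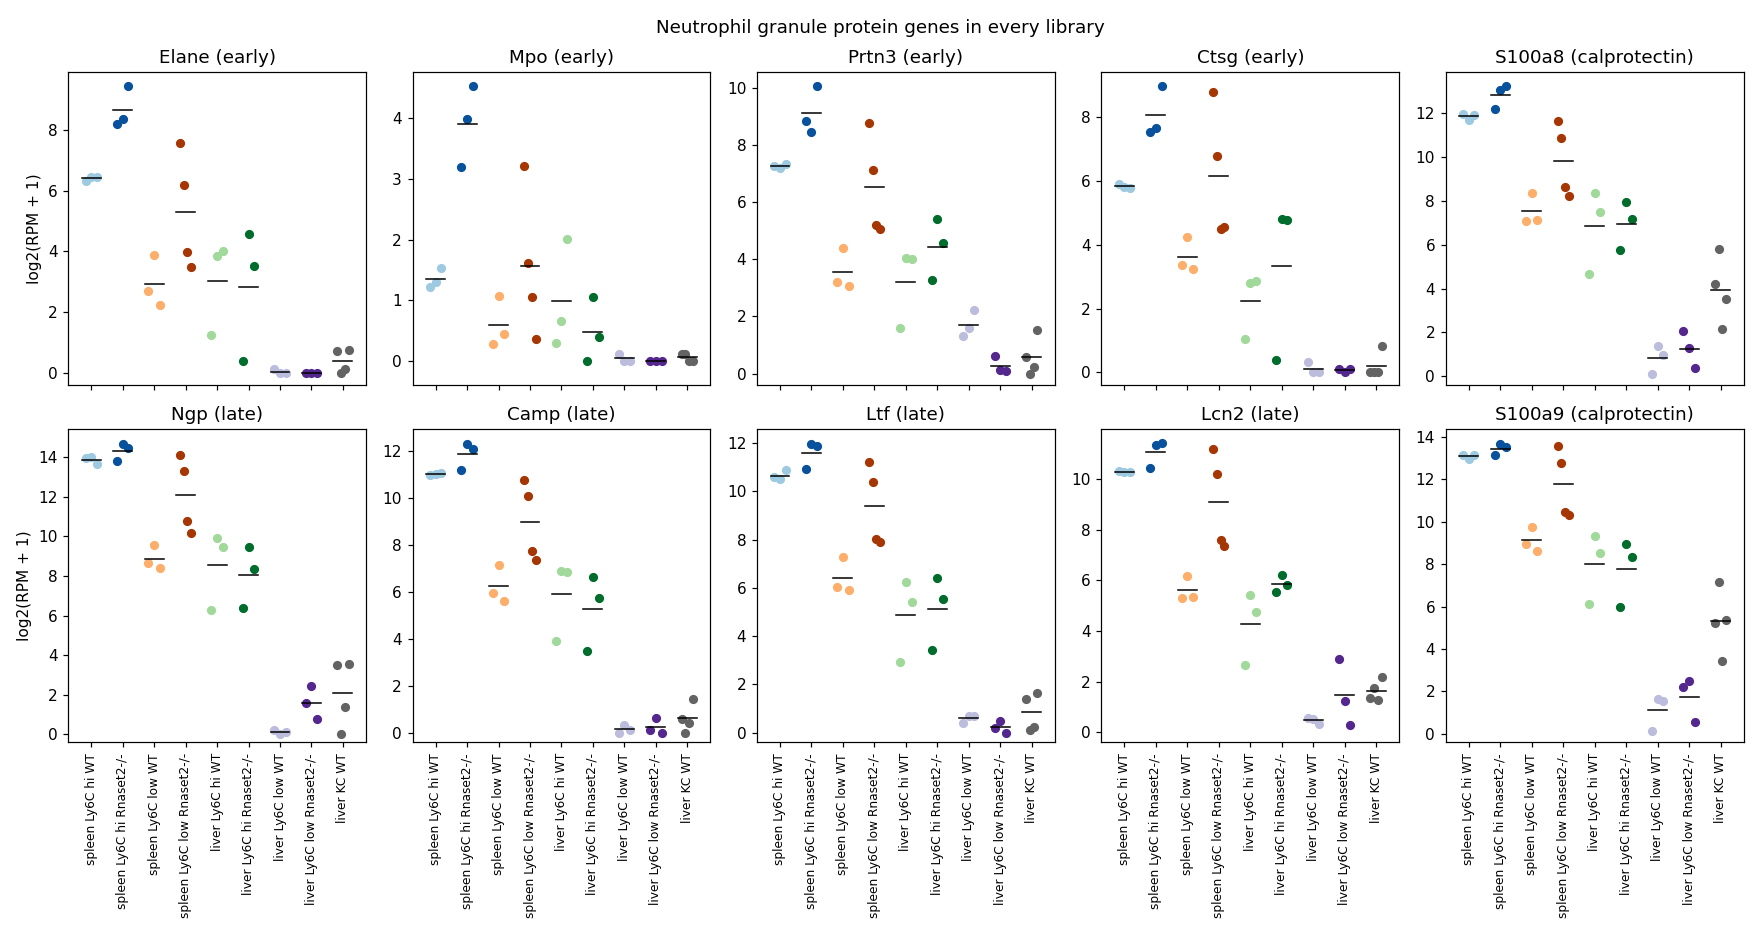
Level of each of the 10 granule genes in the 29 libraries, as log2(RPM + 1) on the vertical axis, with 9 groups along the horizontal axis; each point is a library and each line the mean of its group. Splenic Ly6Chi macrophages of Rnaset2-/- mice have the highest mean in all 10 panels, and splenic Ly6Clow macrophages of Rnaset2-/- mice split into 2 high and 2 lower libraries.

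The first comparison asks whether loss of RNase T2 changed granule genes in splenic Ly6Chi macrophages. All 4 early genes, 3 of 4 late genes and 1 of 2 calprotectin genes rose in Rnaset2-/- mice, and none fell. That is 8 of 10 genes called higher, that is by >1.5-fold with an adjusted p below 0.05 in limma, where 9.77% of 10398 tested genes were called higher and 12.5% lower. A change in the number of cells of a type and a change in RNA per cell cannot be told apart in these bulk samples. Fold changes are differences of log2(scaled RPM + 1), where the added 1 makes changes of low genes smaller.

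Elane was 79.1, 86.9 and 86.2 RPM in the wild-type libraries and 292, 326 and 695 RPM in the Rnaset2-/- libraries. It rose by 2.37 ± 0.25 on the log2 scale (SE, adjusted p = 7.99e-05 in limma). Prtn3, proteinase 3, was 152, 146 and 161 RPM in wild-type mice and 457, 353 and 1063 RPM in Rnaset2-/- mice. Replicate 3 was the highest Rnaset2-/- library for all 4 early genes, and no early gene had overlapping groups. Prtn3 rose by 1.97 ± 0.30 (adjusted p = 0.000664 in limma). Ctsg, cathepsin G, was 59.4, 54.9 and 54.5 RPM against 187, 203 and 502 RPM, and rose by 2.34 ± 0.29 (adjusted p = 0.000195 in limma). Mpo, myeloperoxidase, was at 1.32, 1.46 and 1.89 RPM in wild-type mice and at 8.17, 14.8 and 22.3 RPM in Rnaset2-/- mice. Its rise of 2.65 ± 0.29 (adjusted p = 9.56e-05 in limma) was thus from a level of about 1 RPM.

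The late genes were abundant in both genotypes and changed less. Camp, the cathelicidin, was 2058, 2100 and 2145 RPM in wild-type libraries and 2392, 5146 and 4353 RPM in Rnaset2-/- libraries. It rose by 0.96 ± 0.24 (adjusted p = 0.0104 in limma). Ltf, the iron-binding lactoferrin, rose by 1.07 ± 0.24 (adjusted p = 0.0066 in limma), and Lcn2, the siderophore-binding lipocalin 2, by 0.88 ± 0.22 (adjusted p = 0.0111 in limma). Ngp was 15666, 16065 and 12962 RPM against 14162, 25941 and 22522 RPM. Its groups overlapped, and its log2 fold change of 0.57 ± 0.24 did not pass (adjusted p = 0.088 in limma). S100a8 rose by 1.09 ± 0.24 (adjusted p = 0.0055 in limma), whereas the 0.49 ± 0.18 (log2) of S100a9, its partner in calprotectin, did not pass (adjusted p = 0.0501 in limma). Replicate 1 was the lowest Rnaset2-/- library for all 4 late genes and both calprotectin genes.

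Early genes thus had log2 fold changes of 1.97 to 2.65 (median 2.36) and late genes of 0.57 to 1.07 (median 0.92), where the median over all tested genes was 0.01. For each library, the mean log2(RPM + 1) of the late genes was subtracted from that of the early genes. This difference was -6.29 to -6.19 in wild-type and -5.46 to -4.21 in Rnaset2-/- libraries, so that the genotypes did not overlap. The wild-type libraries were very alike, with an SD of 0.05 against 0.63 in Rnaset2-/- libraries. The limma tests fit 1 spread to both genotypes. In reads, there were 13.9 to 16.7 early reads per 1000 late reads in wild-type libraries and 23.8 to 68.4 in Rnaset2-/- libraries. The groups of 8 genes did not overlap, with Rnaset2-/- libraries higher, as was so for 18.7% of all tested genes. In a single fit of 29 libraries, where all groups share 1 estimate of the spread, 1 of 10 genes was called in place of 8.

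**Figure D2:**
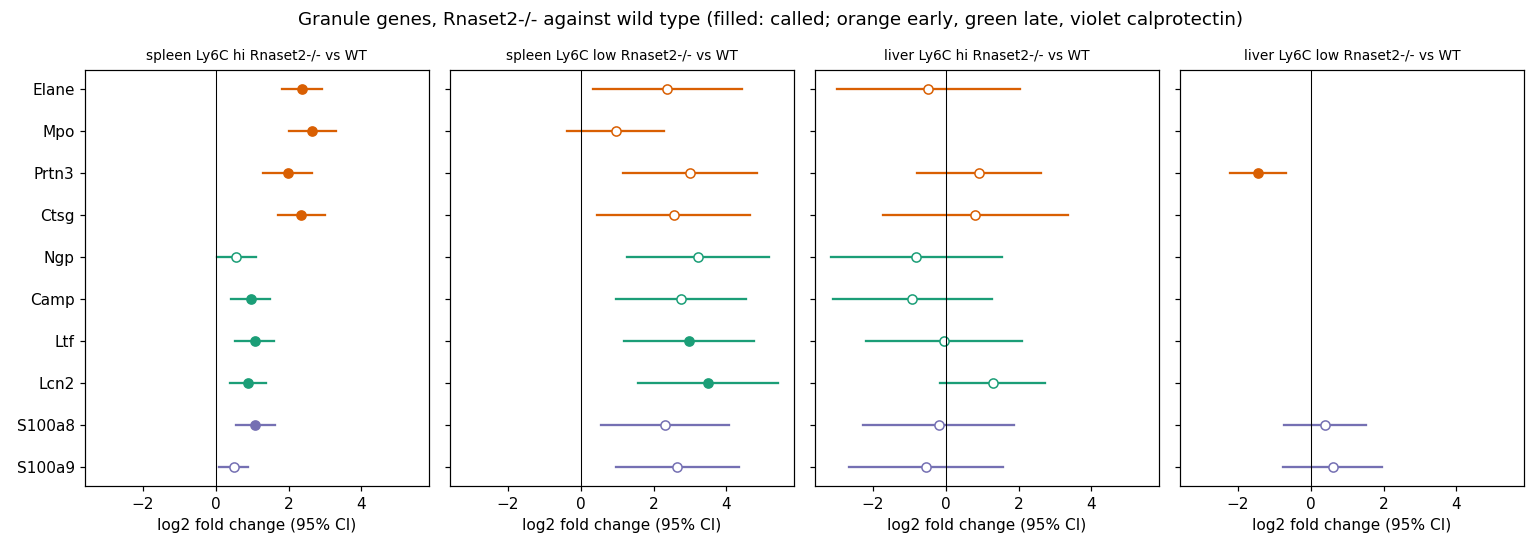
Log2 fold change of each granule gene in Rnaset2-/- against wild-type mice (horizontal axis) with its 95% confidence interval, in 4 panels for the 4 pairs of groups; filled points passed the test, and genes with no point were not tested. In splenic Ly6Chi macrophages the 4 early genes lie at 1.97 to 2.65 and the 4 late genes at 0.57 to 1.07, whereas in splenic Ly6Clow macrophages the intervals are wide.

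For the gene lists that follow, 9.77% of all tested genes were called higher and 12.5% lower. Transcription factors of granulopoiesis were listed with the granule genes, and 2 of 10 rose and 2 fell, which is near those shares. Cebpe, which drives late granule genes, was 15.96 to 18.1 RPM in wild-type and 22.3 to 44.3 RPM in Rnaset2-/- libraries (log2 fold change 0.92, adjusted p = 0.00617 in limma). Gfi1, a repressor needed for neutrophil formation, was 16.7 to 21.7 RPM against 33.3 to 86.1 RPM (1.43, adjusted p = 0.00275 in limma). Cebpa, which acts before them, fell from 320.0 to 346 RPM to 116 to 121 RPM (-1.36, adjusted p = 3.17e-06 in limma). Of other early granule genes, 4 of 8 tested rose, Ms4a3, Prss57 and Cd63 among them by 2.06, 1.90 and 1.69 (log2). Of other late granule genes, 9 of 16 tested rose, with Wfdc21, Orm1 and Hp at 2.11, 1.24 and 0.93 (log2). Of neutrophil surface and maturity genes, 3 of 8 tested rose, Fpr2, Trem1 and Mmp25.

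Markers of other cells moved in the same comparison, and their part in the result was not tested. Ly6g, the gene of the neutrophil antigen used in the gate, was 31.8, 29.2 and 33.5 RPM in wild-type and 24.2, 65.0 and 72.0 RPM in Rnaset2-/- libraries (adjusted p = 0.104 in limma). Cxcr2, a chemokine receptor of mature neutrophils, was 8.95 to 10.5 RPM against 8.88 to 19.3 RPM (adjusted p = 0.0656 in limma). Both genes were lowest in Rnaset2-/- replicate 1, the library that was also lowest for the late granule genes. The 9 neutrophil surface genes summed to 318 to 337 RPM in wild-type and 334 to 457 RPM in Rnaset2-/- libraries, with no gene at 0 throughout. That sum was 465 to 656 RPM in wild-type hepatic Ly6Clow libraries, where Ly6g was at 0 in all. The sum thus does not follow Ly6g across groups. The 6 eosinophil genes summed to 101 to 113 RPM against 259 to 473 RPM. Of these, 3 of 4 tested rose, Prg2, Epx and Siglecf, while Ccr3 fell. Per the labels, SiglecF is another antigen that the sorted cells lacked. Erythroid genes fell (3 of 3 tested), as did 4 of 5 tested T, NK and B cell genes. Over all tested genes 9.77% were called higher and 12.5% lower.

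In splenic Ly6Clow macrophages, all 10 genes had a higher mean in Rnaset2-/- mice, but the 4 Rnaset2-/- libraries were far apart and 2 genes were called. They were Lcn2 and Ltf, both late genes, where 4.05% of 10295 tested genes were called higher and 4.3% lower. Lcn2 was 38.8, 71.0 and 40.0 RPM in wild-type libraries and 2352, 1179, 191 and 165 RPM in Rnaset2-/- replicates 1 to 4. It rose by 3.49 ± 0.85 (adjusted p = 0.0399 in limma). Ltf was 63.9, 157 and 59.9 RPM against 2406, 1333, 257 and 237 RPM, and rose by 2.97 ± 0.78 (adjusted p = 0.0491 in limma). Ngp was 405, 753 and 332 RPM against 17331, 9998, 1764 and 1130 RPM. Replicate 1 thus held as much Ngp as splenic Ly6Chi macrophages did, and even replicate 4 lay above every wild-type Ly6Clow library. The log2 fold change of Ngp was 3.21 ± 0.86 (adjusted p = 0.0513 in limma).

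Among early genes, Prtn3 was 8.32, 20.1 and 7.38 RPM in wild-type libraries and 433, 140.2, 35.7 and 32.6 RPM in Rnaset2-/- libraries (2.99 ± 0.81, adjusted p = 0.0526 in limma). Ctsg was 9.30, 18.05 and 8.499 RPM against 445, 109.8, 21.8 and 22.5 RPM (2.55 ± 0.92, adjusted p = 0.109 in limma). Elane was 5.45, 13.9 and 3.72 RPM against 191, 72.7, 14.7 and 10.1 RPM, and its groups overlapped. For 7 of 10 genes the groups did not overlap, with Rnaset2-/- libraries higher, as for 14.3% of all tested genes. The early-minus-late difference went the other way from that in Ly6Chi macrophages, at -4.14 to -4.08 in wild-type and -5.55 to -4.73 in Rnaset2-/- libraries. It includes Mpo, at 0.210 to 1.10 RPM in the wild-type libraries, where the added 1 makes changes smaller. By reads the groups overlapped, with 40.9 to 47.3 early reads per 1000 late reads in wild-type and 23.9 to 45.2 in Rnaset2-/- libraries. The number of called genes ran from 0 to 6 when single libraries were left out, and it was 0 without any one wild-type library or without Rnaset2-/- replicate 2, 6 without Rnaset2-/- replicate 1 or 4 and 5 without replicate 3. Calls over all genes moved as well, with 417 higher in the full comparison, 191, 119 and 98 without wild-type replicates 1 to 3, and 589, 240, 379 and 324 without Rnaset2-/- replicates 1 to 4. With DESeq2 on the recovered reads 9 granule genes and 907 of 10295 genes in all were called higher, and with edgeR 5 and 453.

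Neutrophil genes were high in the same Rnaset2-/- libraries, and their part in the result was not tested. Ly6g was 4.61, 7.96 and 4.71 RPM in wild-type Ly6Clow libraries and 152, 78.8, 17.0 and 11.6 RPM in Rnaset2-/- libraries (adjusted p = 0.0645 in limma). Cxcr2 was 2.59 to 2.81 RPM against 30.7, 23.7, 4.33 and 3.66 RPM (adjusted p = 0.121 in limma). In replicate 1, Ly6g was thus above its level in every splenic Ly6Chi library. The neutrophil surface genes summed to 350.1 to 388 RPM in wild-type libraries and to 762, 559, 402 and 330.4 RPM in Rnaset2-/- replicates 1 to 4, and no gene of the 9 was at 0 in all of them. In wild-type mice that sum was higher here than in splenic Ly6Chi libraries (318 to 337 RPM), although Ly6g was lower. Cebpe was 0.492 to 0.699 RPM in wild-type libraries and 13.4, 7.38, 1.63 and 1.69 RPM in Rnaset2-/- libraries (adjusted p = 0.0821 in limma). Gfi1 had an adjusted p of 0.279 in limma, and Cebpa fell by 0.90 on the log2 scale (adjusted p = 0.0183 in limma). The 6 erythroid genes were also highest in replicates 1 and 2, with sums of 955, 228, 56.0 and 70.4 RPM in replicates 1 to 4, against 39.8 to 99.4 RPM in wild-type libraries. The 6 eosinophil genes followed another order, with sums of 300, 414, 226 and 528 RPM, against 16.2 to 44.3 RPM. Of neutrophil surface and maturity genes, 2 of 8 tested rose, Csf3r and Fpr2. Of other early granule genes 0 of 8 tested were called, and of other late granule genes 2 of 16 rose, Retnlg and Hp. Over all tested genes 4.05% were called higher.

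**Figure D3:**
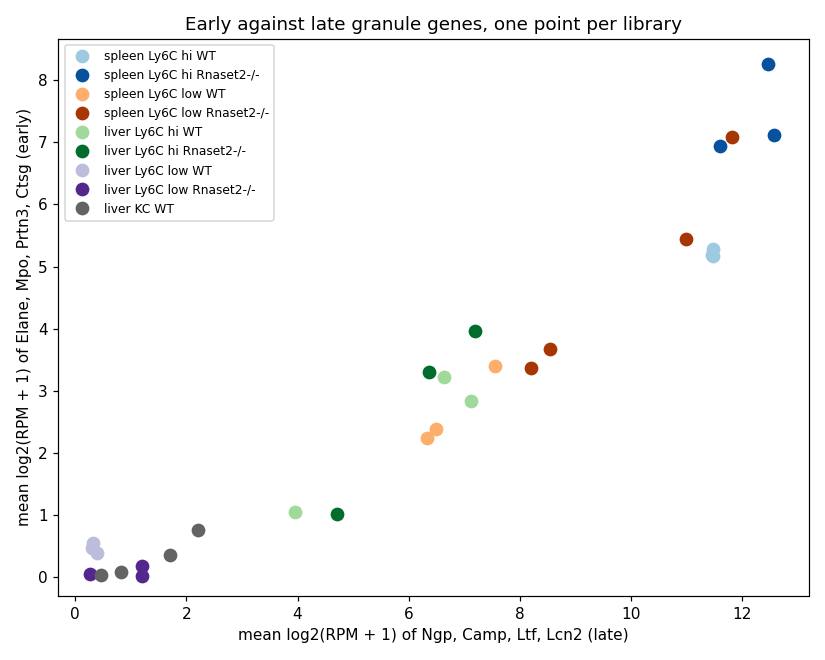
Mean log2(RPM + 1) of the 4 early genes (vertical axis) against that of the 4 late genes (horizontal axis), with 1 point for each of 29 libraries, coloured by group. At the late level of splenic Ly6Chi macrophages, Rnaset2-/- libraries lie above wild-type libraries by the early genes, and the splenic Ly6Clow libraries of Rnaset2-/- mice run from near the wild-type Ly6Clow libraries up to the Ly6Chi libraries.

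In hepatic Ly6Chi macrophages no granule gene was called between genotypes. Of 9 tested genes 0 passed in limma, 0 had an unadjusted p below 0.05, and edgeR and DESeq2 also called 0, where 15.7% of 10957 tested genes were called higher and 14.9% lower. Replicate 1 of each genotype held less than the other libraries, and in wild-type mice it was also the library with no Y-linked reads, whose part in this was not tested. Ngp was 76.3, 959 and 709 RPM in wild-type libraries and 83.1, 703 and 320.4 RPM in Rnaset2-/- libraries, with a log2 fold change of -0.81 and a 95% confidence interval of -3.15 to 1.53. Lcn2 was 5.25, 42.2 and 25.8 RPM against 45.1, 74.1 and 56.0 RPM, and it was the only gene of the 10 whose groups did not overlap, whereas 36.4% of all tested genes had every Rnaset2-/- library higher. Its log2 fold change was 1.29 ± 0.62 (adjusted p = 0.153 in limma). Mpo was not tested, at 0.232, 0.584 and 3.04 RPM against 0, 1.08 and 0.308 RPM. Gfi1 rose by 1.33 (log2, adjusted p = 0.0354 in limma) and Cebpa fell by 1.94 (adjusted p = 0.000544 in limma). Of other late granule genes, 5 of 16 tested fell, with Retnlg, Padi4 and Anxa1 at -3.99, -3.16 and -2.65 (log2), and 1 rose. Markers of T, NK and B cells rose in 7 of 7 tested genes and erythroid markers in 5 of 5, and their part in these values was not tested. Ly6g was at most 0.626 RPM in wild-type and 1.77 RPM in Rnaset2-/- libraries.

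In hepatic Ly6Clow macrophages most granule genes were near or under 3 reads, and 3 of 10 could be tested. Prtn3 reached 1 RPM in the wild-type libraries alone and was tested only through them, so its lower level in Rnaset2-/- mice is given as a description. It was 1.49, 2.005 and 3.67 RPM in wild-type libraries and 0.539, 0.0780 and 0.0770 RPM in Rnaset2-/- libraries, 2 of which were under the worth of 3 reads (log2 fold change -1.45). Over all 10808 tested genes, 20.2% were called higher and 22.5% lower. Among early genes, Prtn3 was alone at this level, since Elane, Mpo and Ctsg did not exceed 0.248 RPM in any hepatic Ly6Clow library. S100a8 and S100a9 had log2 fold changes of 0.40 and 0.60 and did not pass (adjusted p = 0.538 and 0.442 in limma). Without any one wild-type library Prtn3 no longer reached 1 RPM in 3 libraries and was not tested. Other late granule genes were lower in 9 of 14 tested, with Padi4, Anxa1 and Pglyrp1 at -4.92, -4.65 and -4.09 (log2), and 4 of 6 KC genes were higher, with sums of 5686 to 10815 RPM in Rnaset2-/- and 96.1 to 126 RPM in wild-type libraries.

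The genotype effects were compared between organs by an interaction term, as the change in liver minus the change in spleen. In Ly6Chi macrophages, Mpo differed by -3.28 ± 0.65 (adjusted p = 0.00234 in limma), and 1 of 10 genes was called, where 17.6% of 11398 genes were called higher and 16% lower. Hepatic Ly6Chi libraries held Mpo at 0 to 3.04 RPM, and it entered this fit only with the splenic libraries, so its term is a description. Elane had a difference of -2.84 ± 1.27 and did not pass (adjusted p = 0.103 in limma). In Ly6Clow macrophages, Prtn3 differed by -4.45 ± 1.00 (adjusted p = 0.00591 in limma) and Ltf by -3.37 ± 0.94 (adjusted p = 0.0184 in limma), where 12.1% of 11308 genes were called higher and 14.7% lower. The hepatic part of the Prtn3 difference rests on the low values given above. Ltf was at most 0.626 RPM in hepatic Ly6Clow libraries, so its term mostly mirrors the splenic change and is a description. The other 8 genes had differences of -2.67 to -0.99. Without hepatic wild-type Ly6Chi replicate 1, 5 of 10 genes were called in Ly6Chi macrophages, and without hepatic Rnaset2-/- replicate 2, 2 were. In Ly6Clow macrophages 5 were called without splenic Rnaset2-/- replicate 4 and 4 without replicate 3.

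The subsets were compared to see where granule genes lie between Ly6Chi and Ly6Clow macrophages. In the spleen of wild-type mice all 10 genes were lower in Ly6Clow macrophages, where 19.8% of 10521 genes were called lower and 13.8% higher. The late genes were lower by more, with log2 fold changes of -4.84 to -4.09, than the early genes, with -3.56 to -0.68. In the spleen of Rnaset2-/- mice 5 of 10 genes were called lower, where 15.1% of 10309 genes were and 13% were called higher. They were Elane, Mpo, Prtn3, Camp and S100a8. The log2 fold changes of the late genes were -2.87 to -1.96 there. This count was 0 without Ly6Chi replicate 2 or 3, 1 without Ly6Clow replicate 3 and 10 without Ly6Clow replicate 1, and edgeR called 2. The difference between genotypes in the subset effect was positive for the 4 late genes (1.77 to 2.63 on the log2 scale). For the early genes Elane, Ctsg and Prtn3 it was -0.01, 0.19 and 1.00. For Mpo it was -1.69, with wild-type levels of 0.210 to 1.89 RPM, where the added 1 makes changes smaller. Of all members, 0 of 10 passed in limma, where 8.35% of 10838 genes were called higher and 6.38% lower. At an unadjusted p below 0.05, 4 of 10 did, Ngp, Lcn2 and S100a9 with higher and Mpo with lower values, and edgeR called 1 and DESeq2 3.

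In liver most members could be tested only because they were high in Ly6Chi macrophages, so their values are a description and their counts are not read as a result. In wild-type mice 6 of 9 tested genes, Elane, Ctsg, Ngp, Camp, Ltf and Lcn2, reached 1 RPM in no Ly6Clow library, and in Rnaset2-/- mice 3 of 7 did not, Prtn3, Camp and Ltf. Over all tested genes, 4.84% of 11688 were called lower and 5.24% higher in wild-type mice, and 8.26% of 10895 and 8.75% in Rnaset2-/- mice. Ngp was 76.3, 959 and 709 RPM in wild-type Ly6Chi libraries and at most 0.166 RPM in Ly6Clow libraries. S100a9 was 67.5, 637 and 369 RPM in wild-type Ly6Chi libraries and 0.0830, 2.09 and 1.97 RPM in Ly6Clow libraries. Prtn3 was 2.01, 15.5 and 15.3 RPM against 1.49, 2.005 and 3.67 RPM in wild-type mice, where its groups overlapped and it did not pass (-1.59 ± 0.59, adjusted p = 0.139 in limma). In Rnaset2-/- mice Prtn3 was 8.75, 41.6 and 22.5 RPM in Ly6Chi libraries and at most 0.539 RPM in Ly6Clow libraries. The interaction was called for 0 of 9 genes in limma, where 5.08% of 12626 genes were called higher and 5.25% lower. Prtn3 alone had an unadjusted p below 0.05 (difference -2.35 ± 0.89, adjusted p = 0.115 in limma), and edgeR called 0 and DESeq2 2. Without any one Ly6Chi library fewer genes reached 1 RPM in 3 libraries, so that 3 could be tested in wild-type liver and 4 in Rnaset2-/- liver.

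**Figure D4:**
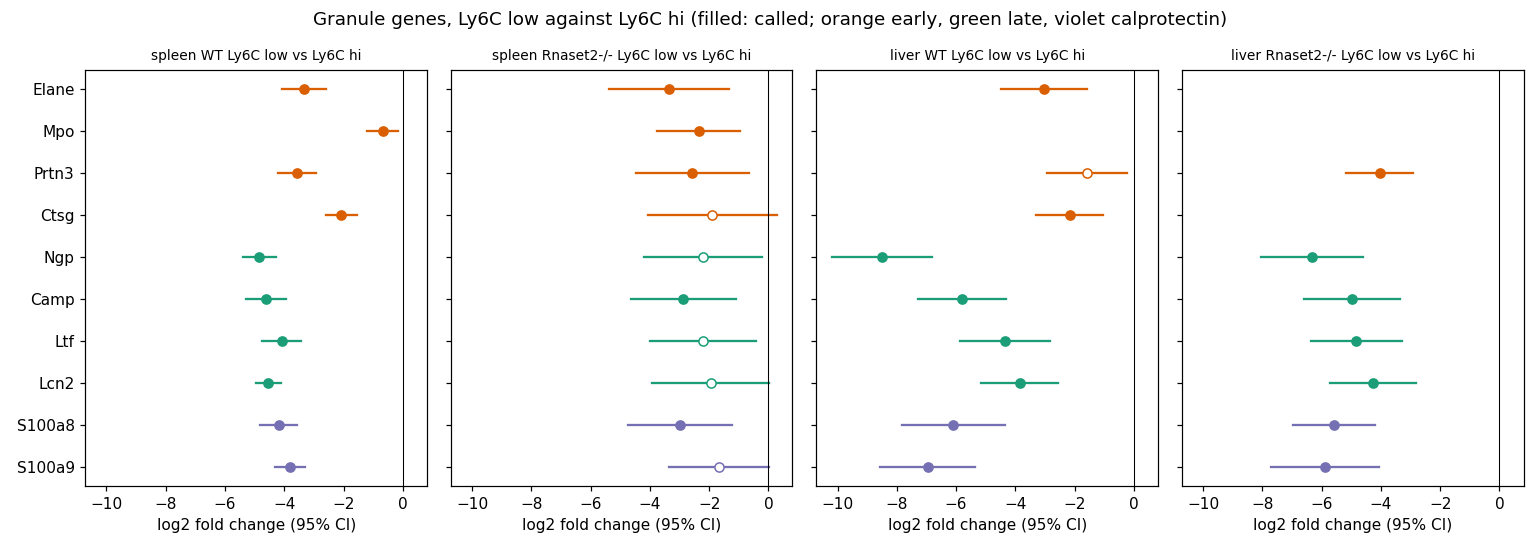
Log2 fold change of each granule gene in Ly6Clow against Ly6Chi macrophages (horizontal axis) with its 95% confidence interval, in 4 panels for spleen and liver of each genotype; filled points passed the test, and genes with no point were not tested. In wild-type spleen the 4 late genes lie at -4.84 to -4.09, and in Rnaset2-/- spleen at -2.87 to -1.96 with wider intervals.

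Over the 29 libraries, which share organ, subset and depth differences, the members followed each other. Pearson's r of log2(RPM + 1) was 0.969 to 0.994 between late genes, 0.861 to 0.977 between early genes and 0.767 to 0.970 between an early and a late gene. Of 13980 genes compared, the 5 that were most like the mean of the early genes were Ms4a3 (r = 0.984), Itgb2l (0.974), Fcnb (0.969), Prss57 (0.966) and 4930438A08Rik (0.962). Those most like the late genes were Itgb2l (0.963), Fcnb (0.962), Cd177 (0.951), Ms4a3 (0.945) and Chil1 (0.941). Ms4a3, which marks granulocyte-monocyte progenitors, was 43.3 ± 3.11 RPM (n = 3) in splenic Ly6Chi macrophages of wild-type mice and 179 ± 76.0 RPM (n = 3) in those of Rnaset2-/- mice. A list of other progenitor genes did not rise between these groups. Of 6 tested, 0 were called higher and 2 lower, Flt3 and Sox4, where 9.77% of all tested genes were called higher and 12.5% lower. Fcnb, a ficolin, was 400.0 ± 37.6 RPM (n = 3) in the wild-type and 1205 ± 455 RPM (n = 3) in the Rnaset2-/- group of splenic Ly6Chi macrophages. Cd177, a neutrophil surface protein, was 498 ± 20.5 RPM (n = 3) and 677 ± 126 RPM (n = 3).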

How the data were processed

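RNA of sorted macrophages was read with an amplicon panel (Ion AmpliSeq Transcriptome Mouse, Ion Proton), and the authors used the AmpliSeqRNA plug-in to count the reads of each gene. The build in the submitters' processing notes is mm10. The authors deposited RPM, that is reads scaled to 1 total per library. All values (100%) were whole reads within 0.1 reads, so counts could be recovered. No other sample's columns were in the table. Groups follow the labels. Within each comparison RPM were scaled by relative log expression, and genes reaching 1 RPM in 3 or more libraries entered limma 3.58.1 (trend, R 4.3.3) on log2(value + 1). Tests were two-sided, adjusted by Benjamini-Hochberg over all tested genes, and called at >1.5-fold with an adjusted p below 0.05. The methods of the paper give DESeq2 at the same thresholds. Its results count genes by >1.5-fold and, separately, by a q value below 0.1, so its counts are not on the same footing. On the recovered reads, in splenic Ly6Chi macrophages, edgeR 4.0.16 called 1046 genes higher and 1345 lower, and DESeq2 1.42.0 1067 and 1346. Tested on simulated data for splenic Ly6Chi macrophages, limma recovered 53 of 100 genes changed by 2-fold and 100 of 100 changed by 4-fold, and called 4 of 10143 unchanged genes. Every simulated library had the same dispersion (spread beyond counting error) of 0.05. In the real libraries the spread was unequal, as for Elane (SD 4.34 RPM in wild-type and 224 RPM in Rnaset2-/- libraries). These rates therefore do not carry over to the granule genes.

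The 10 members are named in every comparison. Of the other lists, at most 3 called genes of largest fold change were named, with Cebpa, Cebpe, Gfi1, Ly6g and Cxcr2 always, and the 5 genes most like the early and the late members. Siglecf was named besides in splenic Ly6Chi macrophages, because the labels give SiglecF as an excluded antigen. The members and lists were chosen with earlier results of these data known. Alternatives were 0.1 added in place of 1, no filter, RPM as deposited, a single fit of 29 libraries, a replicate block, edgeR, DESeq2, an adjusted p below 0.1 alone and leaving out each library. Whether replicate numbers pair samples was checked by the correlation of deviations from group means. Every pair was above 0.1 only for Ly6Clow against Ly6Chi in Rnaset2-/- liver (lowest 0.232). Promoters come from RefSeq (GRCm38.p6), and all 10 members matched. The Rnaset2 and Ly6c genes were not analysed here.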

Additional observations from a re-analysis of the deposited data

Results flagged for a closer look

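The 10 genes were each tested for a library far from the others in the 2 groups of 4 libraries, and 1 of these 20 sets had one. Chance gives about 1 in 20, and the sets share libraries, so they are not independent. It was Ctsg in KCs, listed at 0 in 3 libraries and at 0.755 RPM in the fourth.

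The interaction term between liver and spleen passed for Mpo in Ly6Chi macrophages (-3.28 on the log2 scale). In Ly6Clow macrophages it passed for Ltf (-3.37) and Prtn3 (-4.45). The hepatic values behind these terms were low, at 0 to 3.04 RPM for Mpo, at most 0.626 RPM for Ltf and 0.0770 to 3.67 RPM for Prtn3. The terms are therefore a description. The early-minus-late difference of mean log2(RPM + 1) was higher in Rnaset2-/- than in wild-type splenic Ly6Chi macrophages by 1.47, with no overlap between genotypes. It was lower in splenic Ly6Clow macrophages (-0.88), with no overlap by this measure. By reads the Ly6Clow genotypes overlapped, at 40.9 to 47.3 early reads per 1000 late reads in wild-type and 23.9 to 45.2 in Rnaset2-/- libraries. Mpo was at 0.210 to 1.10 RPM in those wild-type libraries, where the added 1 makes changes smaller. The opposite direction in the subsets was not tested.

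Wild-type KCs, which enter no comparison, held Lcn2 at 2.20 RPM, S100a8 at 21.5 RPM and S100a9 at 57.3 RPM on average, above the worth of 3 reads. Replicate 2 had the most S100a8 (54.5 RPM) and S100a9 (142.6 RPM), whereas its Ngp, Camp and Prtn3 were at 0.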

How the results depend on the processing

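Against the 2 granule genes called between genotypes in splenic Ly6Clow macrophages, 4 were called with 0.1 added, 0 with no filter, 1 with RPM as deposited, 7 in a single fit of 29 libraries, 5 by edgeR, 9 by DESeq2 (which called 907 higher over all genes, in place of 417) and 7 at an adjusted p below 0.1 alone. In splenic Ly6Chi macrophages the single fit called 1 in place of 8. In hepatic Ly6Clow macrophages 2 were called with no filter (1 higher) and 0 in the single fit, in place of 1. For Ly6Clow against Ly6Chi in Rnaset2-/- spleen, edgeR called 2 in place of 5. For interactions, edgeR called 1 in place of 2 (organ, Ly6Clow) and 1 in place of 0 (subset, spleen), DESeq2 3 in place of 0 (subset, spleen) and 2 in place of 0 (subset, liver), and 0.1 added gave 1 in place of 0 (subset, liver). The cause was not tested.

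With the replicate block, counts were 9 (splenic Ly6Clow genotype), 1 lower (hepatic Ly6Chi genotype), 0 (subset in Rnaset2-/- spleen), 2 and 8 (organ interactions, Ly6Chi and Ly6Clow) and 3 (subset interaction, spleen). The numbers did not pair the samples there, so these counts say nothing of weaker or stronger effects. Where they did, in Rnaset2-/- liver, the block kept the count at 7, and it changed no other count by over 1.5 times.

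Leaving out single libraries gave 8 to 10 (splenic Ly6Chi genotype), 0 to 6 (splenic Ly6Clow genotype), 0 to 1 (both hepatic genotype comparisons), 9 to 10 (subset, wild-type spleen), 0 to 10 (subset, Rnaset2-/- spleen), 2 to 8 (subset, wild-type liver), 4 to 7 (subset, Rnaset2-/- liver), 1 to 5 and 2 to 5 (organ interactions, Ly6Chi and Ly6Clow), 0 to 3 (subset interaction, spleen) and 0 to 2 (liver).

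Without single libraries, the hepatic Ly6Chi genotype values of Elane ran from -1.40 to 0.69, of Ltf from -1.02 to 0.74, of S100a8 from -1.28 to 0.53 and of S100a9 from -1.49 to 0.28 (log2). The organ interaction of Lcn2 in Ly6Chi macrophages ran from -0.38 to 1.00. The spleen subset interaction ran from -0.75 to 0.58 for Elane and from -0.66 to 0.72 for Ctsg, and that of liver from -0.70 to 1.36 for Elane, -1.11 to 0.63 for Ltf, -1.02 to 0.51 for Lcn2 and -0.13 to 1.69 for S100a8. None of these had passed with all libraries.

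Some values that did not pass changed sign, all in log2. In hepatic Ly6Chi macrophages with RPM as deposited, Ltf was 0.26 and S100a8 0.12. In the organ interaction of Ly6Clow macrophages, Ngp was 0.31 with 0.1 added, 0.72 by edgeR and 0.86 by DESeq2. In the spleen subset interaction, Elane was 0.12 with 0.1 added, 0.11 with RPM as deposited, 0.58 with the replicate block, 0.73 by edgeR and 0.68 by DESeq2. In the liver subset interaction, Lcn2 was 0.19 with 0.1 added, 1.72 by edgeR and 1.76 by DESeq2, and Elane -1.77 by edgeR and -0.95 by DESeq2. RPM as deposited moved the median of all genes to 0.31 in hepatic Ly6Chi macrophages, with 2661 genes higher and 905 lower in place of 1717 and 1634.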
